A study of Mus musculus with 3 samples.

Results

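The genes described here encode the subunits of the mitochondrial respiratory chain and ATP synthase that are carried on nuclear chromosomes. They were chosen by symbol: Nduf genes of the a, b, c, s and v series, Uqcr genes, Cox4 to Cox8 genes, Atp5 genes and Sdha to Sdhd, without pseudogenes and without the Ndufaf assembly factors. The rule took 84 of the 31053 genes in the count matrices, under 83 symbols, because Atp5o is listed under 2 gene identifiers. Of these 84, 35 belong to complex I, 4 to complex II, 8 to complex III, 20 to complex IV and 17 to complex V. Ndufa4 and Ndufa4l2 were placed in complex IV, where the NDUFA4 protein is found.

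The samples were cells carrying CD45, a surface protein of blood-derived cells, and were sorted from the stomach of female C57bl/6 mice after its muscle layer had been taken apart with enzymes. There were 3 droplet single-cell libraries, replicates 1, 2 and 3, all of 1 group labelled NonDiabetic, with no treatment, time or age given and no second group. Whether the libraries came from separate animals or from pools is not stated in the labels. A p-value here reflects how far the difference between classes varied among libraries, with spread partly shared across genes. That variation may be technical. All comparisons below are therefore between cell classes within libraries.

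Complex I takes electrons from NADH and complex II takes them from succinate, an intermediate of the citric acid cycle. Complex III passes them to cytochrome c, and complex IV passes them from cytochrome c to oxygen. Complexes I, III and IV move protons across the inner membrane, and complex V uses their return flow to make ATP. Complexes I, III, IV and V also hold subunits encoded in mitochondrial DNA, and complex II holds none. Macrophages, innate lymphoid cells and dendritic cells are known to differ in how far they rely on respiration or on glycolysis.

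Barcodes with at least 1000 UMIs (unique molecular identifiers, 1 for each captured transcript) and at most 15% of UMIs from mitochondrially encoded genes were kept, which left 522, 1692 and 1216 cells in replicates 1, 2 and 3. A cell was put in a class when it had at least 3 of the 8 markers of that class and at least 2 more than of any other. Replicates 1, 2 and 3 held 222, 1083 and 783 macrophages and 112, 172 and 151 group 2 innate lymphoid cells (ILC2), lymphocytes without antigen receptors that make type 2 cytokines. They held 11, 55 and 33 dendritic cells, and 104, 295 and 200 cells met no class. Monocytes, T or NK cells, mast cells and fibroblasts were fewer, from 4 to 44 cells in a library. The names rest on markers: the macrophage list summed to between 11095 and 15636 CPM (UMIs per 1000000) in macrophages and to between 93.1 and 127 CPM in ILC2. The same lists set the gate, so a class standing high on its own list is no separate check of its name. Fibroblasts are not blood-derived cells, yet 64 were present in the sort, with their collagen and matrix list at 56868 to 60089 CPM. Replicates 2 and 3 shared 33 barcodes, replicates 1 and 3 shared 1, and replicates 1 and 2 shared 0.

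At the DNA level the genes whose levels differed between classes share short promoter words with many other genes. RefSeq (GRCm38.p6) gave a promoter, 250 bases before to 50 after the gene start, for 66 of the 83 symbols. The word GCATGCGC, bound by NRF1, a regulator of nuclear genes for mitochondria, stood on either strand in 15.2% of the 66, against 6.59% of the genes tested between ILC2 and macrophages that had a promoter and 3.05% of all promoters. The ETS word CCGGAAG stood in 24.2% of the members, 22.6% of tested genes and 9.93% of all promoters. The YY1 word AAGATGGCG stood in 10.6%, 4.26% and 1.64% in the same order, and CCAAT in 43.9%, 42.9% and 41.1%. Below are the 120 bases before the RefSeq start of 3 genes that carry the ETS word there, shown because the first 2 were higher and the last lower in ILC2; capitals mark the ETS word or its reverse complement.
Uqcrh (chr4:116075071-116075190, minus strand): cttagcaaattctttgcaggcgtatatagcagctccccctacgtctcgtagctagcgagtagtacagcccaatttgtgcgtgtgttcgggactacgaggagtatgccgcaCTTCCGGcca
Atp5h (chr11:115419920-115420039, minus strand): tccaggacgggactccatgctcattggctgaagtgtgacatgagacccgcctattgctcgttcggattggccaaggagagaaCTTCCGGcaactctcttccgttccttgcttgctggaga
Uqcr11 (chr10:80406822-80406941, minus strand): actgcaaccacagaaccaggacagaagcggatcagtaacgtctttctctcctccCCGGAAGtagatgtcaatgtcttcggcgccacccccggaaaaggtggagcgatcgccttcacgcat
GENCODE M21 starts Atp5h upstream of RefSeq, at 115419962, so by that annotation its ETS word lies inside the transcript; the words of Uqcrh and Uqcr11 precede both starts. The word thus stands near the starts of genes that differed between the classes in opposite directions. Of the members higher in ILC2 with a promoter, 4 of 21 hold it, and of those lower, 1 of 5.

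In macrophages 74 of the 84 averaged above 10 CPM and 10 under it, 4 of them at 0; most of the 10 are isoforms known from muscle, testis or other tissues. In ILC2 10 members were under 10 CPM, 8 of them at 0. Over all 3430 kept cells, 81 members had at least 1 UMI, which free RNA can also give and which is not read as expression. Cox7b2, Cox8c and the second Atp5o entry had 0, which allows a level of up to 0.108 CPM. UMIs count transcripts at their 3' end, 1 per molecule, so levels of different genes were not divided by gene length. The most abundant member of each complex in macrophages was Ndufa2 (complex I, 272 CPM), Sdha (complex II, the flavoprotein, 83.4 CPM), Uqcrh (complex III, the hinge subunit, 404 CPM), Cox4i1 (complex IV, 598 CPM) and Atp5e (complex V, the epsilon subunit, 549 CPM), as means of 3 libraries. Among members above 10 CPM, the highest stood 10.8 times over the lowest in complex I and 1.48 times in complex II. The ordering of the 74 members above 10 CPM in macrophages was shared between classes: Spearman's rho across these genes was 0.95 between macrophages and ILC2, beside 0.97 between macrophages of replicates 1 and 2. Genes are not independent replicates, and both values come from the same libraries.

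The members together made up between 1 and 2 percent of UMIs in the main classes. Their summed level in macrophages was 11138, 13251 and 14598 CPM in replicates 1, 2 and 3. In ILC2 it was 12437, 13614 and 16377 CPM. In dendritic cells it was 13911 CPM in the 11 cells of replicate 1, and 16797 and 14738 CPM in replicates 2 and 3. ILC2 stood above macrophages in each of the 3 libraries, but the ranges of the classes overlap, and replicate 1 was the lowest library in macrophages, ILC2 and dendritic cells alike. The means were 12996 ± 1744 CPM (SD, n = 3) in macrophages, 14143 ± 2022 (SD, n = 3) in ILC2 and 15767 ± 1456 (SD, n = 2, replicates 2 and 3) in dendritic cells. A sum over members is given with no test.

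**Figure D1:**
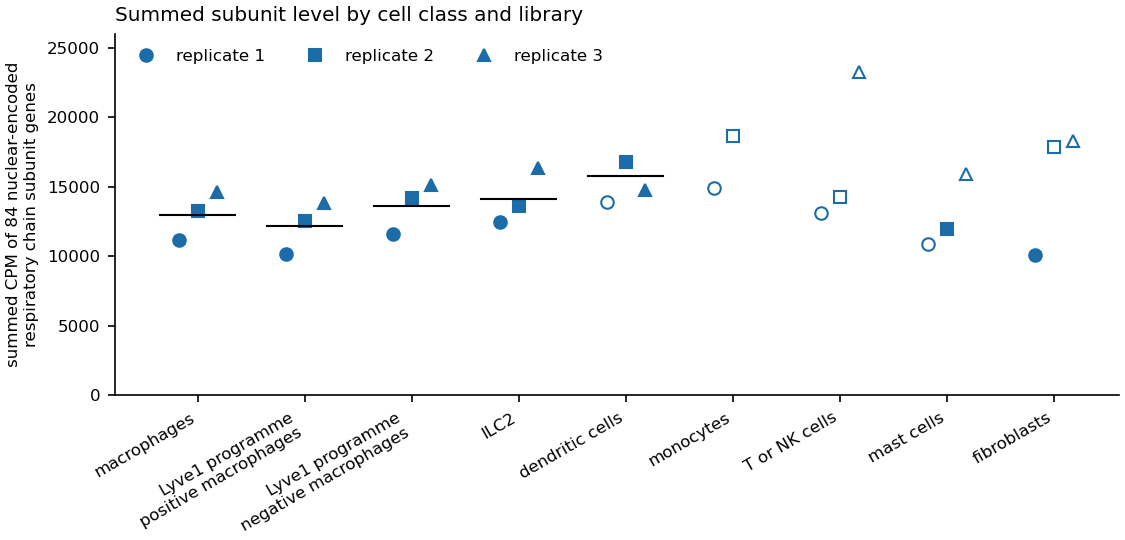
Summed level of the 84 genes in CPM (y axis) for each cell class (x axis) and library (marker shape); open markers are profiles of 5 to 19 cells and the bar is the mean of profiles with at least 20 cells. Replicate 1 is the lowest of the 3 macrophage, ILC2 and dendritic profiles, and the ranges of macrophages (11138 to 14598) and ILC2 (12437 to 16377) overlap.

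What else fills a profile bears on these sums. Ribosomal protein genes took 21.9%, 35.4% and 33.3% of UMIs in ILC2 and 10.4%, 14.2% and 14.4% in macrophages. Per 1000000 UMIs other than mitochondrially encoded and ribosomal protein ones, the members stood at 12943, 16079 and 17711 in macrophages, and at 16887, 22028 and 25718 in ILC2, again higher in ILC2 in each library. Dendritic cells, with 24.7% and 21.5% ribosomal protein UMIs in replicates 2 and 3, came to 22856 and 19301 on that scale. The smaller classes were measured less well: monocytes of replicates 1 and 2 (6 and 10 cells) stood at 14929 and 18679 CPM, mast cells at 10860, 11990 and 15910 CPM, and fibroblasts at 10063, 17885 and 18264 CPM. In single cells thinned to 1000 UMIs, the median macrophage had 9, 11 and 12 UMIs of the members in replicates 1, 2 and 3, and the median ILC2 had 11, 13 and 15.

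The complexes kept similar shares of the sum in each class. Complex IV made up 30.7 ± 0.5% (SD, n = 3) of member UMIs in macrophages, complex V 30.1 ± 0.9%, complex I 26.7 ± 1.1%, complex III 10.4 ± 0.5% and complex II 2.12 ± 0.31%. In ILC2 complex V had the largest share, 33.6 ± 0.5% (SD, n = 3), and in macrophages its highest library was at 31.1%, so the classes did not overlap. Complex I took a smaller share, 24.5 ± 1.1% in ILC2, between 23.3% and 25.5%, against 26.0% to 27.9% in macrophages. Complex II took 1.45 ± 0.36% in ILC2 and 1.23 ± 0.08% (SD, n = 2) in dendritic cells. As levels, complex V stood at 3905 ± 415 CPM in macrophages, 4758 ± 672 CPM in ILC2 and 5204 ± 449 CPM in dendritic cells, and complex I at 3478 ± 582, 3463 ± 511 and 3759 ± 305 CPM.

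ILC2 were compared with macrophages gene by gene over the 3 libraries (quasi-likelihood test of edgeR, blocked by library; p-values adjusted after Benjamini-Hochberg across every gene tested; called at an adjusted p under 0.05). Fold changes are log2 values after TMM scaling, which centres the profiles on the bulk of genes. Of 74 members tested, 22 were higher in ILC2, 29.7% of them, where 25.5% of all 9153 genes tested were called higher. Only 7 were lower, 9.46%, where 27.9% of all genes were called lower. The median member stood 0.20 higher and the median of all tested genes 0.01 higher. The remaining 10 members were too low to be tested. All 29 called members pointed the same way in every library, and the CPM ranges of 14 of them did not overlap between the classes. Neither was counted over all called genes, so these numbers do not set members apart from other genes. The split leans on the scaling: with library totals in place of TMM, which moves the median of all genes to -0.21, 13 members were called higher and 11 lower. Every one of the 29 kept its direction, and 13 of the 22 higher and all 7 lower calls remained.

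Complex V and complex III gave the widest differences. Atp5d encodes the delta subunit of the central stalk of ATP synthase (chr10:80138632-80145818, mm10 by GENCODE M21; its exons overlap those of Cbarp on the other strand, and the sources used here do not give the strand rule of the counting). Its level was 110.4, 190.0 and 185 CPM in macrophages and 193, 381 and 378 CPM in ILC2. Each ILC2 library was above all macrophage libraries, with a log2 fold change of 1.18 (SE 0.17, adjusted p = 4.67e-05). Uqcrh, the hinge subunit of complex III that sits near cytochrome c (chr4:116066965-116075071), was at 331, 455 and 427 CPM in macrophages and at 555, 863 and 829.8 CPM in ILC2. The groups did not overlap and the log2 fold change was 1.10 (SE 0.17, adjusted p = 0.000104). Atp5h, subunit d of the peripheral stalk, rose from 276, 331 and 381 CPM in macrophages to 483, 507 and 641 CPM in ILC2 (0.94, SE 0.16, adjusted p = 0.000205). Atp5e, the epsilon subunit, rose by 0.82 (SE 0.16, adjusted p = 0.000723), with CPM ranges that overlap by replicate 1.

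In complex V, 8 of the 15 members tested were higher and 0 lower; with library totals 4 were higher and 1 lower. Beside these 3, the gamma subunit gene Atp5c1 (174 ± 24 to 241 ± 38 CPM, SD, n = 3) and the beta subunit gene Atp5b passed the test, as did Atp5j2 and the c-ring genes Atp5g1 and Atp5g2. The catalytic partner Atp5a1 did not, at a log2 fold change of -0.01 (SE 0.15).

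In complex III, Uqcrh was the 1 of 8 members called higher, and 3 were called lower. Uqcrc1, a core protein of the matrix side, stood at 54.7, 47.9 and 63.3 CPM in macrophages and at 34.6, 20.7 and 40.0 CPM in ILC2, with no overlap (log2 fold change -0.61, SE 0.20, adjusted p = 0.0187). Uqcr11, a small accessory subunit, was at 156, 212 and 229 CPM in macrophages and 121.5, 83.6 and 147 CPM in ILC2 (-0.55, SE 0.18, adjusted p = 0.0199). Uqcrb fell by 0.47 on the log2 scale (SE 0.16, adjusted p = 0.0238). Near-identical copies elsewhere in the genome (at least 98% identity over 90 or more bases) exist for 18 of the 84 members, whose counts are less certain. Among the called genes named here and in the other comparisons these are Uqcr11 and Uqcrb, Atp5h, Atp5g1 and Atp5g2, Cox6c and Cox5b, and Ndufs3, Ndufb11 and Ndufb2. Uqcrfs1, the Rieske iron-sulfur subunit, did not pass (0.31, SE 0.16, adjusted p = 0.133).

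In complex I, 9 of 35 members were higher and 3 lower; with library totals 6 were higher and 5 lower. Ndufv1, the core subunit that binds NADH and flavin (chr19:4007384-4012806), was at 23.0, 23.9 and 28.3 CPM in macrophages and 39.0, 38.7 and 41.0 CPM in ILC2. These groups do not overlap, and ILC2 varied little (log2 fold change 0.89, SE 0.20, adjusted p = 0.00251). Ndufv3, an accessory subunit of the same NADH-oxidising module, rose by 0.86 (SE 0.16, adjusted p = 0.000382), and Ndufb5 of the membrane arm by 0.77 (SE 0.17, adjusted p = 0.00173). Ndufc2, a membrane-arm accessory subunit, went the other way, with 112, 134 and 161 CPM in macrophages and 66.5, 71.0 and 92.6 CPM in ILC2 (-0.60, SE 0.16, adjusted p = 0.00687). Its partner Ndufc1 fell by 0.58 (SE 0.20, adjusted p = 0.0276), and Ndufb4 by 0.49 (SE 0.18, adjusted p = 0.0369). Among core subunits, Ndufv1 and Ndufs3 were called, and Ndufs1, Ndufs7, Ndufs8 and Ndufv2 were not.

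Complexes II and IV differed less. Of the 4 subunits of complex II only Sdhc, a membrane anchor, was called, at 61.4, 53.0 and 64.3 CPM in macrophages and 44.3, 26.1 and 41.0 CPM in ILC2 (-0.49, SE 0.19, adjusted p = 0.0415), a call that 7 alternative settings lost. In complex IV, 4 of 12 tested members were higher and 0 lower (2 and 0 with library totals): Cox7a2l, known for its place in supercomplexes (0.71, SE 0.20, adjusted p = 0.00772), Cox7a2 (0.70, SE 0.16, adjusted p = 0.00206), Cox6c (0.59, SE 0.16, adjusted p = 0.00643) and Ndufa4. Cox4i1, the most abundant, was at 598 ± 45 CPM in macrophages and 593 ± 141 CPM in ILC2 (SD, n = 3) and was not called.

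**Figure D2:**
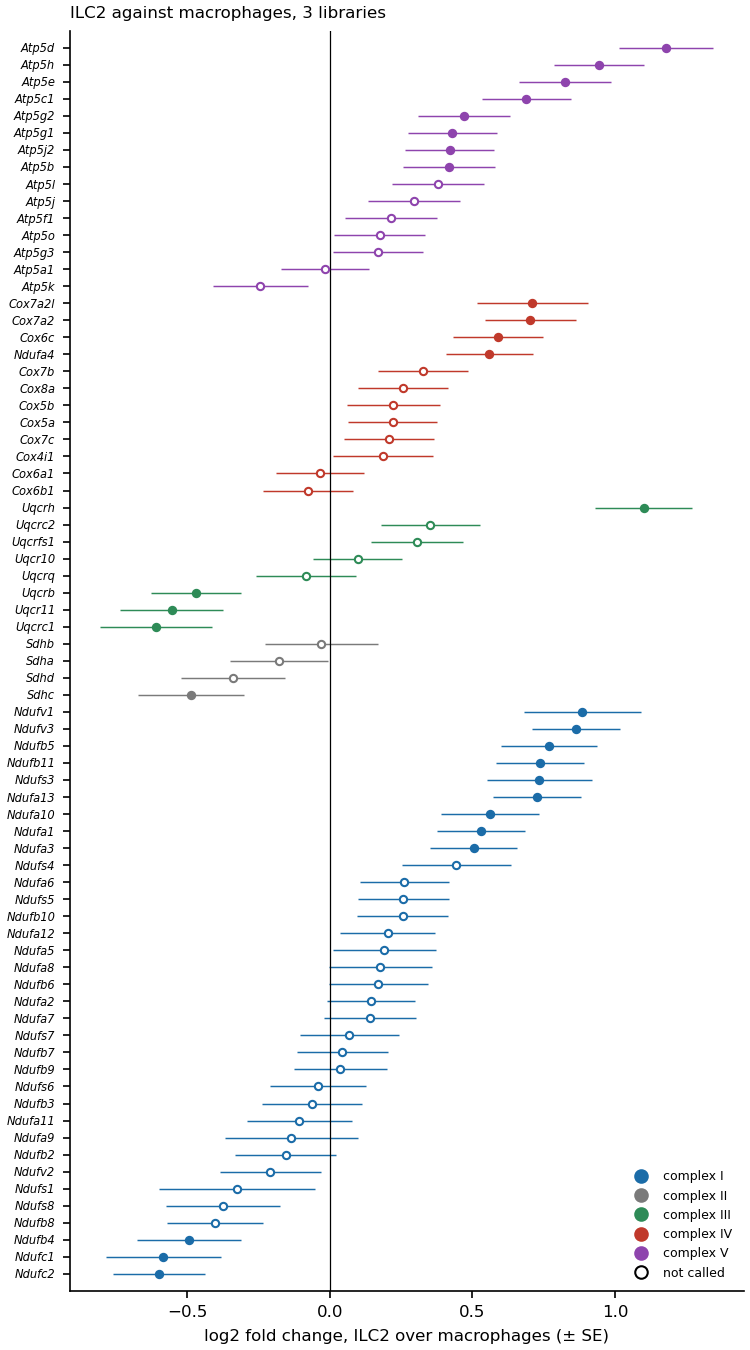
Log2 fold change of the tested members reported here (x axis, bars ± SE) between ILC2 and macrophages over 3 libraries, grouped by complex on the y axis; filled points are called at an adjusted p under 0.05. Complex V lies mostly to the right, with Atp5d at 1.18, while complex III holds both Uqcrh at 1.10 and Uqcrc1 at -0.61.

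With each library left out in turn, all 29 called members kept their direction, which their agreement in every library made all but certain. The calls ranged from 12 to 17 higher and from 2 to 9 lower (2 without replicate 2, 4 without replicate 3, and 12 higher without replicate 3). Without the library block, 6 were called higher and 0 lower, and DESeq2 called 14 higher and 1 lower. Without the barcodes that libraries share, the calls were again 22 and 7.

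Atpif1 is the inhibitor protein of ATP synthase and was not among the 84. It stood at 288, 332 and 372 CPM in macrophages and at 119, 76.4 and 141 CPM in ILC2 (log2 fold change -1.37, SE 0.18, adjusted p = 2.59e-05), so it was lower in ILC2 in each library while 8 subunits of its target were called higher, or 4 higher and 1 lower with library totals. Assembly factors included 10 called higher and 0 lower of 38 tested, led by Cox10, an enzyme of the haem A synthesis pathway (2.02, SE 0.27, adjusted p = 2.7e-05), and Ttc19. Cycs, cytochrome c, rose by 0.91 (SE 0.18, adjusted p = 0.000793). Among citric acid cycle genes, 6 were higher and 1 lower of 17, with Pdha1 at 1.49 (SE 0.17) and Idh2, the mitochondrial NADP-linked isocitrate dehydrogenase, at -3.59 (SE 0.29, adjusted p = 2.71e-07). Of the 13 mitochondrially encoded subunits, whose share the cell filter had limited to 15%, 1 was called, mt-Nd6 (0.65, SE 0.20). Mitochondrial ribosome genes were higher in 15 and lower in 4 of 77, regulators of mitochondrial biogenesis in 2 and 1 of 13 (Myc and Gabpb1 higher), carriers and membrane-shape genes in 6 and 1 of 15, and glycolysis genes in 6 and 2 of 15 (Ldha at 1.84, Hk2 at -0.89). AA467197, a relative of NDUFA4, was lower (-2.15, SE 0.41, adjusted p = 0.0006). With library totals the higher and lower calls were 10 and 8 for the mitochondrial ribosome, 5 and 0 for assembly factors, 3 and 2 for the citric acid cycle, 2 and 2 for carriers, 2 and 1 for regulators and 3 and 2 for glycolysis.

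Dendritic cells were compared with macrophages in replicates 2 and 3, where both classes had at least 20 cells. With 2 libraries little spread can be measured for a single gene, so the p-values lean on spread shared across genes. Of 77 members tested, 18 were higher in dendritic cells, 23.4% of them, where 12.8% of all 10297 genes tested were called higher. None, 0 of 77, was lower, where 16.0% of all genes were; at an unadjusted p under 0.05, edgeR gave 2 lower, and DESeq2 called 0 lower. The median member stood 0.31 higher and the median of all genes 0.11 lower, at -0.11. The scaling matters here as well: with library totals, the median of all genes moved to -0.37, and 5 members were called higher and 4 lower. All 18 stayed above 0 in that fit, and 5 of them stayed called. Dendritic cells had a median of 17800 and 14326 UMIs and macrophages 5037 and 7908. When each cell was thinned to 1000 UMIs, 0 members were called higher and 1 lower, with 16 of the 18 still above 0. Without the barcodes that libraries share, 14 of the 18 stayed called. Fibroblast markers in dendritic cells ran from 158 to 400 CPM with Pdgfra and Col1a1 at 0; their part in the result was not tested.

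The called members included 7 of complex IV, 7 of complex V, 3 of complex I and 1 of complex III. With library totals, complex IV had 0 called, complex V 3 higher, complex I 1 higher and 2 lower, complex II 2 lower and complex III 1 higher. Uqcrfs1, the Rieske subunit (chr13:30540308-30545362), was at 88.3 and 81.3 CPM in macrophages and at 173 and 118 CPM in dendritic cells of replicates 2 and 3 (log2 fold change 1.03, SE 0.24, adjusted p = 9.53e-05). Dendritic cells of replicate 1, not in this fit, were at 70.5 CPM against 61.0 in macrophages. Atp5d was at 190.0 and 185 CPM in macrophages and 384 and 261 CPM in dendritic cells (1.02, SE 0.23, adjusted p = 0.000105). Atp5h and Atp5g1, a c-ring gene, both rose by 0.86 (SE 0.23 each). In complex I the accessory subunit gene Ndufa6 was at 214 and 204 CPM in macrophages and 371 and 286 CPM in dendritic cells, the largest of its complex (0.90, SE 0.23, adjusted p = 0.000757). Ndufb11 rose by 0.78 (SE 0.24) and Ndufa1 by 0.59 (SE 0.23), but Ndufa1 was at -0.40 with cells thinned to 1000 UMIs and lost its call in 6 other settings. In complex IV, Cox7a2l rose by 0.76 (SE 0.23), Cox5b by 0.75 (SE 0.23), and Cox6b2, an isoform known from testis, by 1.19 (SE 0.44, adjusted p = 0.0265) from 11.3 ± 2.9 to 21.1 ± 2.4 CPM (SD, n = 2). Cox5a was the 1 called member whose CPM ranges overlapped, and overlap was not counted over all called genes.

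The mitochondrially encoded subunits stood lower in the same cells. The cell filter had used these genes, since cells with over 15% of UMIs from them were left out of both classes. Of 13, 6 were called lower and 0 higher in dendritic cells, and all 13 estimates were below 0. mt-Nd2 was at 2053 ± 327 CPM in macrophages and 923 ± 61 CPM in dendritic cells (SD, n = 2; log2 fold change -0.90, SE 0.23). Nuclear members numbered 0.925 and 0.691 UMIs for each mitochondrially encoded UMI in dendritic cells of replicates 2 and 3, and 0.387 and 0.462 in macrophages of those libraries. AA467197 rose by 3.02 (SE 0.26), from 25.5 and 10.1 CPM to 123.5 and 111 CPM; Ndufa4 itself was at -0.03 (SE 0.24) and not called. Cycs rose by 1.5 (SE 0.23), and 9 of 15 glycolysis genes were higher and 0 lower, with Pfkp at 1.87 (SE 0.24). Assembly factors were called higher in 3 and lower in 0 of 42, citric acid cycle genes in 2 and 1 of 17 (Mdh2 at 0.92, Idh2 at -2.17), mitochondrial ribosome genes in 12 and 0 of 77, carriers in 3 and 0 of 16, and biogenesis regulators in 1 and 4 of 13. With library totals, 11 mitochondrially encoded subunits were lower and 0 higher, and the higher and lower calls were 5 and 1 for glycolysis, 1 and 3 for assembly factors, 3 and 2 for the mitochondrial ribosome, 1 and 1 for the citric acid cycle, 1 and 1 for carriers and 0 and 4 for regulators.

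The ranges of the dendritic subsets overlapped, on few cells and with no test. Cells with Xcr1 or Clec9a, markers of cross-presenting dendritic cells, summed to 17051 and 15831 CPM in replicates 2 and 3 (23 and 14 cells), and cells with Cd209a, a marker of the other conventional type, to 16826 and 14489 CPM (29 and 16 cells). In replicate 1 these subsets had 8 and 6 cells and sums of 13467 and 13997 CPM. Cells with both Ccr7 and Fscn1, markers of migrating dendritic cells, summed to 17110 and 12996 CPM in replicates 2 and 3 (8 and 5 cells). A cell could fall in more than one of these subsets.

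Macrophages were then split by Lyve1, Timd4 and Folr2, which together mark long-lived resident macrophages: cells with 2 or more UMIs of the 3 genes were called positive and cells with 0 negative. The members took no part in the split. There were 94, 468 and 401 positive cells and 110, 432 and 315 negative cells, and 18, 183 and 67 cells with 1 UMI were left out. The summed member level was 10133, 12524 and 13854 CPM in positive cells and 11622, 14181 and 15145 CPM in negative cells. The sum was lower in positive cells in each of the 3 libraries, by less than the spread between libraries. Median depth in replicate 2 was 7388 UMIs in positive and 2725 in negative cells, and ribosomal protein genes took 7.98% to 11.8% of UMIs in positive and 11.9% to 17.6% in negative cells. The macrophage list itself ran from 13828 to 17682 CPM in positive and from 9421 to 13008 CPM in negative cells, with all 8 found in both. Markers of other cell types also moved with the split. The list for glia or interstitial cells of Cajal ran from 119 to 148 CPM in positive cells (7 of 8 found, Gfra3 at 0) and from 19.2 to 28.9 CPM in negative cells (5 of 8, with Sox10 and Cdh19 also at 0). The granulocyte list ran from 131 to 208 against 28.8 to 100.8 CPM, with 7 of 8 found in both and Cxcr1 at 0. Ranges overlapped for the smooth muscle list, at 73.5 to 236 against 22.8 to 100.4 CPM, and the monocyte list, at 63.1 to 432 against 324 to 891 CPM, with all 8 found in both. Their part in the results was not tested.

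Of 76 members tested, 20 were lower in positive cells, 26.3% of them, where 10.7% of all 9822 genes tested were called lower. A single member, Sdhc, was higher, where 10.1% of all genes were called higher. The median member stood 0.30 lower, at -0.30, and the median of all genes at 0.00; 65 members were below 0 and 11 above. All 21 called members pointed the same way in every library, but the CPM ranges of only 6 did not overlap, since replicate 1 was low in both groups. Here too neither was counted over all called genes. Replicate 2 carried many of the calls: without it, 0 members were called (and 387 genes in all), while without replicate 1 there were 37 lower and 2 higher, and without replicate 3 there were 3 lower and 0 higher. Without the library block, 0 were called. In all 4 of these fits the 20 members stayed below 0 and Sdhc above, which their agreement in every library made all but certain. With cells thinned to 1000 UMIs, 1 of the 20 stayed called and all 20 stayed below 0. With library totals, the median of all genes moved to 0.16, and 11 were lower and 2 higher. By complex, library totals left 3 lower in complex I, 1 in III, 4 in IV and 3 in V, and 2 higher in complex II. Without the barcodes that libraries share, 18 of the 20 stayed called.

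The largest drop was in complex III. Uqcrfs1 was at 50.3, 66.8 and 65.8 CPM in positive and 66.6, 116 and 103 CPM in negative cells, lower in each library by pairs although replicate 1 makes the ranges touch (log2 fold change -0.82, SE 0.13, adjusted p = 0.00327). Uqcrh fell by 0.39 (SE 0.12, adjusted p = 0.0488), close to the threshold, and 12 alternative settings lost this call while keeping its direction. In complex V, 8 of 15 members were lower: Atp5d was at 90.2, 157 and 147 CPM in positive and 122, 225 and 229 CPM in negative cells (-0.70, SE 0.12, adjusted p = 0.00506), and Atp5c1 fell by 0.60 (SE 0.13) and Atp5e by 0.58 (SE 0.11). In complex IV, 5 of 14 were lower, with Cox5b at -0.66 (SE 0.12), Cox7b at -0.61 (SE 0.12) and Cox7a2l at -0.58 (SE 0.12). Cox7a2l did not overlap, with 193, 218 and 222 CPM in positive and 256, 297 and 301 CPM in negative cells. In complex I, 5 of 35 were lower, with Ndufb5 and Ndufa13 both at -0.67 (SE 0.14) and Ndufa6 at -0.57 (SE 0.12). Ndufb5 and Ndufa13 overlap exons of Mrpl47 and Tssk6 on the other strand. Ndufs7, a core complex I subunit, stood at 0.19 (SE 0.13) and was not called.

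Complex II went the other way in part. Sdhc was at 74.8, 67.1 and 80.9 CPM in positive cells and 53.5, 38.8 and 42.6 CPM in negative cells, with every positive library above every negative one (log2 fold change 0.61, SE 0.13, adjusted p = 0.0114). Sdha had the same order, at 95.8 ± 12.1 against 67.2 ± 14.7 CPM (SD, n = 3), and missed the threshold (0.39, SE 0.12, adjusted p = 0.0505). Sdhb and Sdhd, with estimates below 0, were not called.

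**Figure D3:**
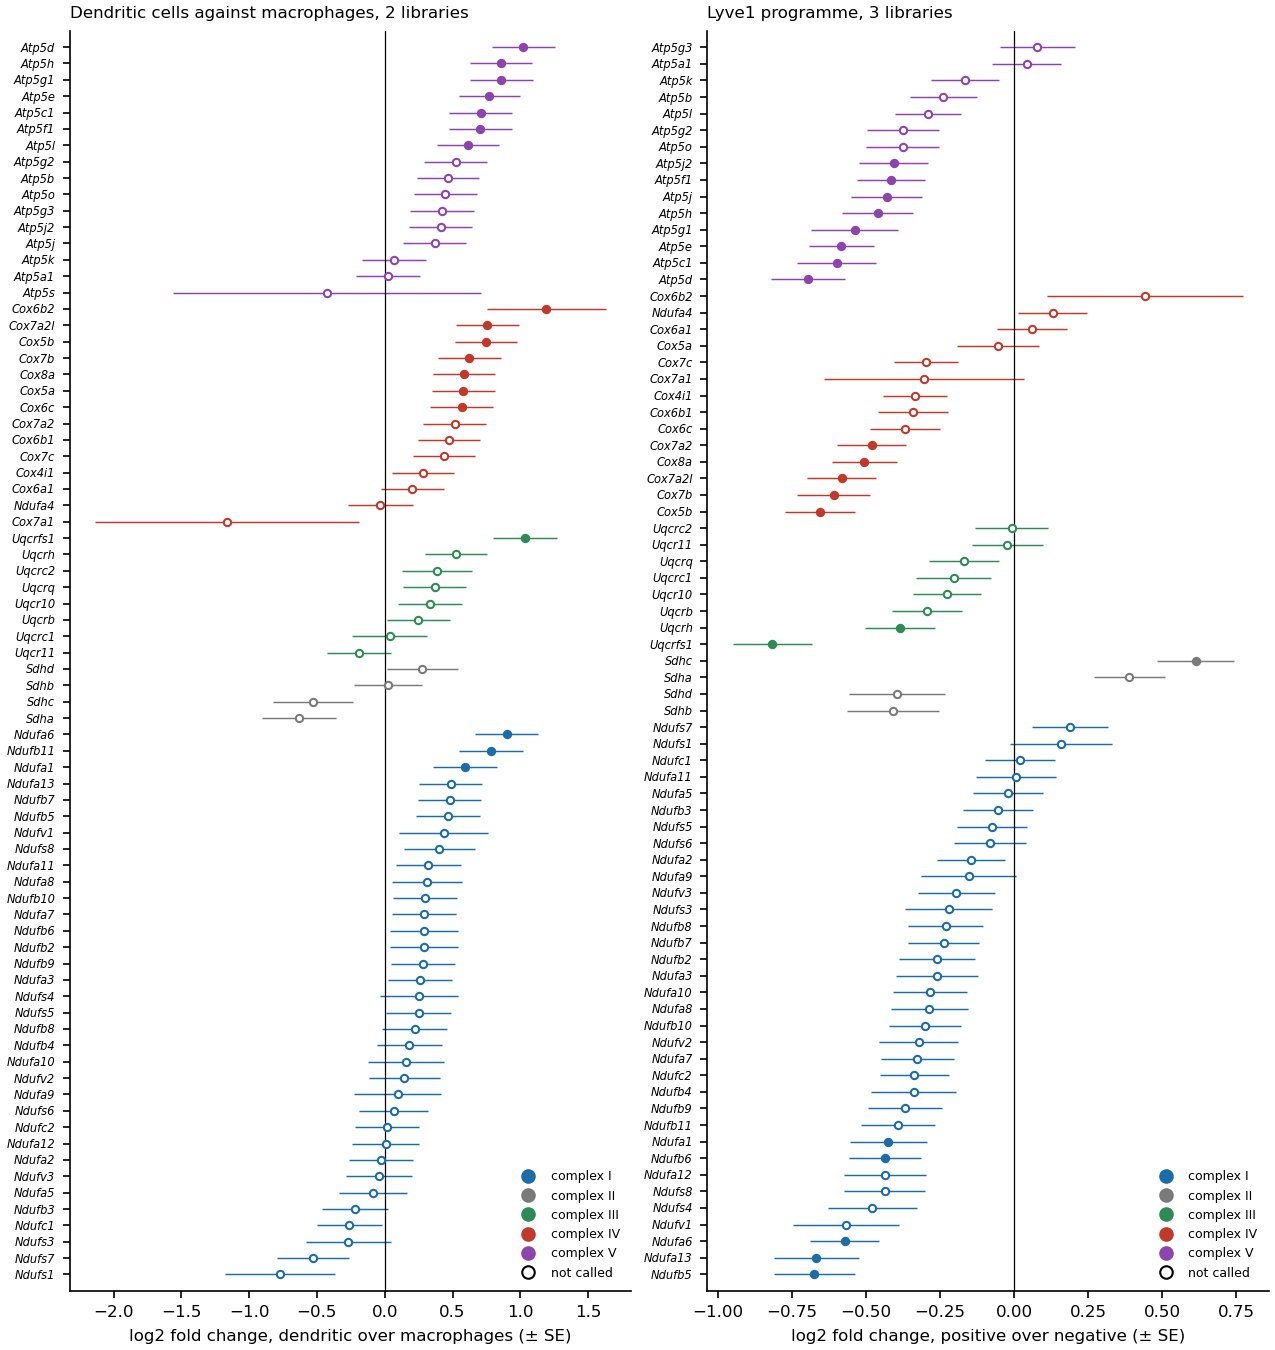
Log2 fold change of the tested members reported here (x axis, bars ± SE) between dendritic cells and macrophages (left, replicates 2 and 3) and between Lyve1 programme positive and negative macrophages (right, 3 libraries), grouped by complex; filled points are called at an adjusted p under 0.05. Uqcrfs1 is at 1.03 on the left and -0.82 on the right, and Sdhc is the filled point above 0 on the right, at 0.61.

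Mitochondrially encoded subunits again moved against the nuclear ones, in cells that the filter had limited to at most 15% of UMIs from these genes. All 13 estimates were above 0 in positive cells and 6 were called higher, among them mt-Co2 at 5867 ± 222 against 3913 ± 944 CPM (SD, n = 3; log2 fold change 0.46, SE 0.11) and mt-Nd3 at 0.58 (SE 0.14). Nuclear members numbered 0.263, 0.313 and 0.357 UMIs for each mitochondrially encoded UMI in positive cells, and 0.347, 0.53 and 0.663 in negative cells. The ratio was lower in positive cells in each library. AA467197 fell by 2.90 (SE 0.34, adjusted p = 0.000663). Of 15 glycolysis genes, 8 were lower and 0 higher, with the glucose carrier gene Slc2a1 at -2.04 (SE 0.38). Citric acid cycle genes were higher in 2 and lower in 1 of 17, with Idh2 at 1.15 (SE 0.15, adjusted p = 0.000967). Mitochondrial ribosome genes were lower in 13 and higher in 0 of 77, assembly factors in 2 and 0 of 41 (Uqcc2 at -0.61, SE 0.13), electron carriers in 1 and 0 of 8 and carriers in 0 and 1 of 16. With library totals, 10 mitochondrially encoded subunits were higher and 0 lower, 6 glycolysis genes were lower and 0 higher, and the mitochondrial ribosome had 7 lower and 2 higher.

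**Figure D4:**
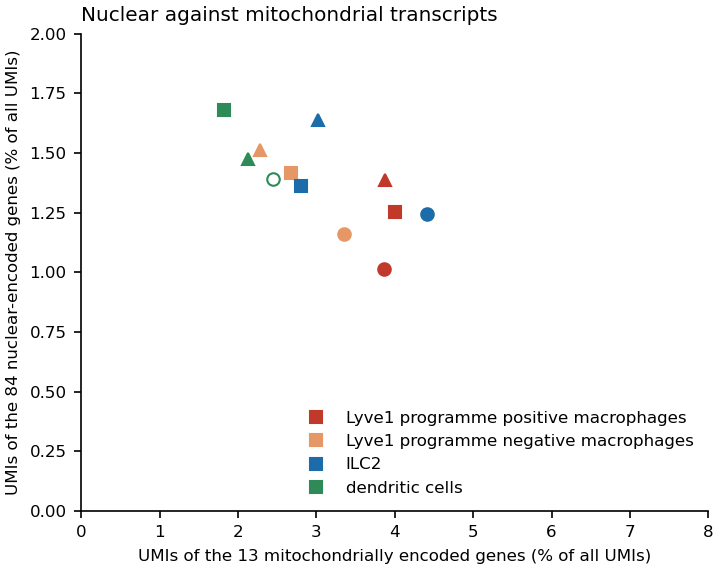
Share of UMIs from the 84 nuclear-encoded genes (y axis, %) against that from the 13 mitochondrially encoded genes (x axis, %), 1 point for each class and library; marker shape is the replicate and open markers have under 20 cells. Dendritic points of replicates 2 and 3 lie toward the left. Lyve1 programme positive macrophages lie toward the right, at 3.86% to 4.00% on the x axis. ILC2 libraries span 2.81% to 4.41%, so the highest of them lies further right.

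Negative macrophages were also described by chemokine receptor, with no test. Here a cell with a receptor had 2 or more UMIs of its gene, and a cell with no receptor, or without it, had under 2. Cells with Ccr2, a receptor of recently arrived monocyte-derived cells, and no Cx3cr1 summed to 12422, 14852 and 15225 CPM in replicates 1, 2 and 3, and cells with Cx3cr1 and no Ccr2 to 9940, 11027 and 13625 CPM (13 cells in replicate 1). Cells with both receptors were at 11743, 15969 and 16791 CPM. The Ccr2 cells without Cx3cr1 stood above the Cx3cr1 cells without Ccr2 in each library, with ranges that overlap, and the cells with both did so too.

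Paralogous subunits differed widely in level. Cox4i1 was at 555 to 645 CPM in the 3 macrophage profiles, and Cox4i2, its lung isoform, had 11 UMIs over all macrophages and 0 in ILC2. Cox7a1, a heart and muscle isoform, was at 5.3, 5.0 and 7.2 CPM in macrophages and 0 in each ILC2 library, which allows up to 0.94 CPM over the class; Cox7a2 was at 220.1 ± 35.9 CPM (SD, n = 3) in macrophages. Cox6b2 was at 5.3, 9.2 and 13.4 CPM in macrophages and had 1 UMI in ILC2. Ndufa4l2 had 0 UMIs in macrophages, ILC2 and dendritic cells and 14 in fibroblasts. Of the c-ring genes Atp5g1, Atp5g2 and Atp5g3, which encode 1 mature protein, Atp5g2 was the most abundant in macrophages (354 CPM), and only Atp5g1 was called lower in Lyve1 programme positive macrophages, at -0.54 (SE 0.15).

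**Figure D5:**
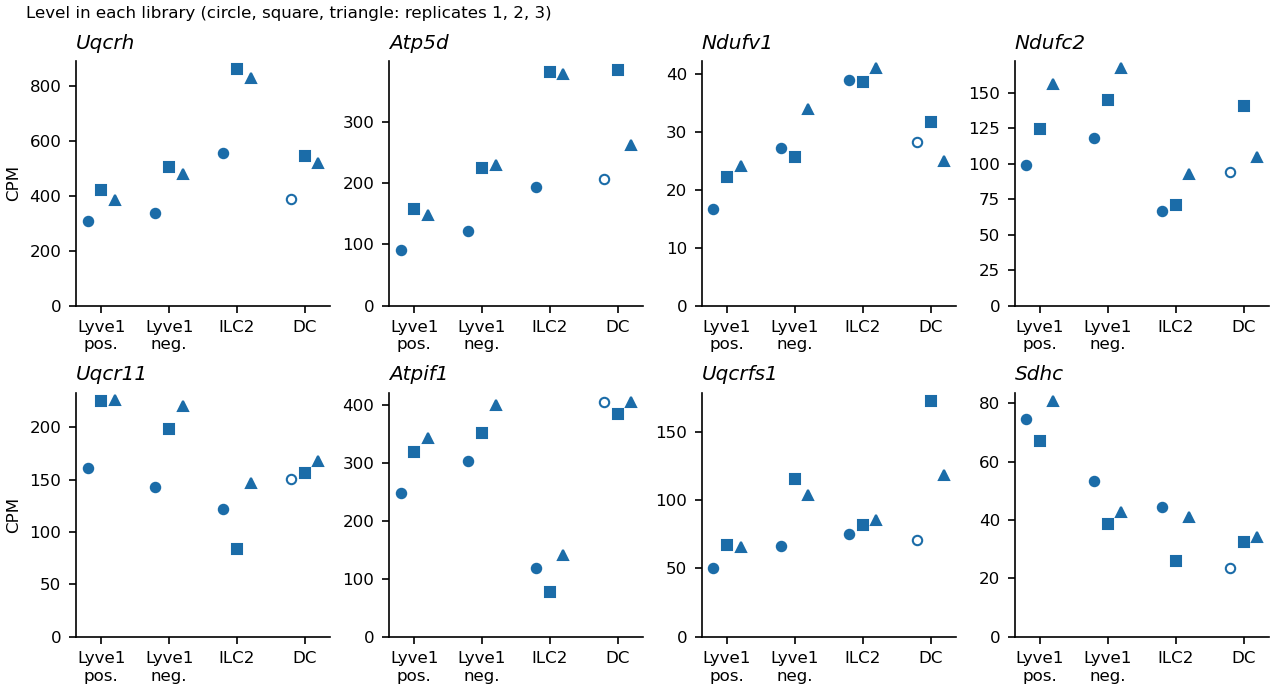
Level of 8 genes in CPM (y axis) in Lyve1 programme positive and negative macrophages, ILC2 and dendritic cells (x axis), 1 point for each library; open circles are the 11 dendritic cells of replicate 1. Uqcrh is highest in the ILC2 libraries of replicates 2 and 3 (863 and 829.8), Atpif1 is lowest in ILC2 (76.4 to 141), and Sdhc is highest in positive macrophages (67.1 to 80.9).

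In the smaller classes at most 1 library had 20 cells, so profiles with at least 5 cells were used, a minimum chosen after the data were seen. Fibroblasts had 9 of 76 members higher than macrophages, 11.8%, where 16.5% of all 9507 genes tested were called higher. They had 1 lower, 1.32%, where 18.8% of all genes were called lower. With library totals 11 members were higher and 1 lower. Without replicate 1, 2 or 3, respectively 6, 4 and 3 of the 9 higher calls remained. Of these 3 fits, only the one without replicate 1 kept the lower call. Cox8b, an isoform of muscle and brown fat, was at 15.7, 19.6 and 18.2 CPM in fibroblasts, on 11, 2 and 2 UMIs, and at 0.1 to 0.8 CPM in macrophages (log2 fold change 5.03, SE 0.83, adjusted p = 0.000152). Cox6b2 was at 30.1, 137 and 191 CPM in fibroblasts (3.36, SE 0.36, adjusted p = 1.96e-06), and Ndufs3, a core subunit with a near-identical copy, rose by 1.34 (SE 0.31). Ndufa11 rose by 0.95 (SE 0.28) and Ndufb2 by 0.89 (SE 0.28), and Cox5a fell by 0.96 (SE 0.29). Complex I genes made up 7 of the 9 higher calls and 35 of the 76 members tested. Monocyte markers in fibroblasts ran from 1029 to 2431 CPM with 4 of 8 found and Chil3, Ifitm6, F10 and Ly6c2 at 0, and smooth muscle markers from 284 to 797 CPM with all 8 found; their part in the result was not tested.

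T or NK cells had 2 of 74 members called against macrophages, Atp5d higher at 1.05 (SE 0.33) and Ndufc2 lower at -1.34 (SE 0.48), where 21.7% of all genes were called. Neither member was called by DESeq2, without replicate 2 or without replicate 3, and Ndufc2 also lost its call without replicate 1. With library totals 5 members were higher and 0 lower. ILC2 markers ran from 670 to 1665 CPM in T or NK cells with 7 of 8 found and Il5 at 0; their part in the results was not tested. Against ILC2 they had 0 of 74 called, where 9.01% of all genes were; 4 had an unadjusted p under 0.05 by edgeR and 0 were called by DESeq2. Monocytes had 0 of 74 called against macrophages (4.53% of all genes), with 11 at an unadjusted p under 0.05, and 0 of 64 against dendritic cells (12.0%), with 2. Mast cells had 0 of 74 called (15.0%), with 3 at an unadjusted p under 0.05. DESeq2 also called 0 in these 3 comparisons. The profiles of these 3 classes held 5 to 21 cells each, which limits what could be detected. In mast cells, ILC2 markers ran from 1688 to 4546 CPM with 4 of 8 found and Icos, Klrg1, Il5 and Il7r at 0. Macrophage markers there ran from 0 to 563 CPM with 7 of 8 found and Ms4a7 at 0. The part of both lists in the mast cell result was not tested.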

How the data were processed

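Per the labels' protocols, CD45+ cells were captured with the Chromium Single Cell 3' v3 kit. The authors deposited raw UMI counts per gene and barcode for 3 libraries, made with Cell Ranger 3.1 on mm10 per the submitters' processing notes. Replicate 1 carries version 3.0.0 and the others 3.1.0, per the file headers. The libraries held 881, 2839 and 2015 barcodes and 6777422, 13336484 and 11017170 UMIs. The sources used here do not give strand or multiple mapping rules.

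Members and gene lists were chosen with earlier results of these data known. Genes named are, for each comparison and complex, up to 3 called members with the largest fold change in each direction that agree in sign in every library, the most abundant member, fixed paralogs and core subunits, and the 2 most changed called genes of other lists. Counts were summed per library and class and tested with edgeR 4.0.16 (filterByExpr, TMM, library block, glmQLFit and glmQLFTest, two-sided). The same fit was run on simulated counts with equal spread set for every gene, which cannot show how well its p-values hold for these data. The SE of a fold change is its absolute log2 value divided by the square root of the F statistic of the edgeR test. It is not a separately fitted standard error. Each class profile had at least 20 cells (5 where stated). DESeq2 1.42.0 and other cell filters, gates, scalings and left-out libraries were tried. Doublets were kept. As an alternative, the barcodes with the highest scrublet scores (scanpy 1.11.5) were removed, in a number preset at 0.8% per 1000 barcodes. These were 6, 64 and 32 barcodes, of which 3, 37 and 29 were cells in a class. Positions are from GENCODE M21. Intervals for counts of 0 use 3 counts and cover counting error only. Promoter words overlapping each other were counted separately. The gene-level result of 1 member is not reported here; it remains in the counts and sums.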

Additional observations from a re-analysis of the deposited data

How the results depend on the processing

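All values below are counts of called genes or members, or summed CPM, under settings changed one at a time, except that the marker gates changed the minimum and the margin together (2 markers with a margin of 1, 4 with a margin of 3). The 2-marker gate took the dendritic comparison and both monocyte comparisons from 2 to 3 libraries, and the 4-marker gate took both T or NK comparisons from 3 to 2. ILC2 against macrophages: members called higher were 14 with DESeq2, 13 with library totals, 6 with no replicate block and 12 to 17 with a library left out; lower were 1, 11 and 0 for the first 3, 11 with no filter on low counts, 2 with cells thinned to 1000 UMIs and 2 to 9 with a library left out; genes in all were 1790 after thinning, of 3170 tested, and 4095 to 5111 with a library left out. Dendritic cells against macrophages: members higher were 8 (DESeq2), 5 (library totals), 11 (no filter), 10 (no replicate block), 29 (gate with 2 markers) and 0 (thinned); lower were 4 (library totals), 1 (gate with 2 markers) and 1 (thinned); genes in all were 1271 (DESeq2) and 508 (thinned). Leaving out replicate 2 or 3 leaves 1 library, and the gate with 4 markers could not be fitted. Ndufa1 reversed to -0.40 after thinning. Lyve1 programme: members higher were 0 (DESeq2, no replicate block, thinned), 2 (library totals, no filter, at most 25% mitochondrial UMIs, either other marker gate, doublets or shared barcodes removed, Lyve1 alone) and 0 to 2 with a library left out; lower were 11 (DESeq2), 11 (library totals), 0 (no replicate block), 1 (thinned), 39 (Lyve1 alone), 39 (gate read in thinned cells) and 0 to 37 with a library left out; genes in all were 1021 (DESeq2), 595 (no replicate block), 590 (thinned) and 387 to 3019 with a library left out. Monocytes against macrophages: 1 member called without mitochondrial and ribosomal genes or with the 2-marker gate, 2 with mitochondrial limits of 10% or 25% or doublets removed; genes in all 164 (DESeq2), 244 (no replicate block), 189 (2000 UMIs), 852 and 239 (gates with 2 and 4 markers) and 90 (thinned). T or NK cells: 0 members (DESeq2, 4-marker gate, thinned), 5 (library totals), 1 (no filter), 0 to 2 with a library left out; genes in all 913 (4-marker gate), 511 (thinned), 911 to 1309 with a library left out. Mast cells: 1 (doublets removed), 2 (thinned), 0 to 3 with a library left out; genes in all 499 (thinned), 740 to 917 with a library left out. Fibroblasts: 5 (DESeq2), 6 (no filter), 6 (no replicate block), 2 (thinned), 3 to 10 with a library left out; genes in all 711 (thinned), 2636 to 3096 with a library left out. Monocytes against dendritic cells: 2 members (2-marker gate); genes in all 122 (DESeq2), 463 (25% limit), 651 (2-marker gate) and 7 (thinned). ILC2 against T or NK cells: 1 member with library totals, no filter or the 4-marker gate, 0 to 1 with a library left out; genes in all 245 (DESeq2), 263 (4-marker gate), 63 (thinned), 245 to 341 with a library left out. Per 1000000 UMIs other than mitochondrial and ribosomal protein, the sum was 15578 in macrophages (complexes I to V: 4171, 325, 1624, 4779, 4679), 21544 in ILC2 (5264, 307, 2256, 6466, 7252), 21078 in dendritic cells (5024, 259.6, 2132, 6707, 6956), 14252 in Lyve1 positive (II, IV and V: 338, 4347, 4206) and 16790.1 in negative macrophages (4434, 306, 1727, 5182, 5139.9); complex II in negative macrophages was 257 without mitochondrial UMIs alone. Thinned, complex V was 3449 in macrophages and 3189 in Lyve1 positive cells, complex IV 3598 in negative cells, and complexes I, II and III 3061, 245 and 1418 in dendritic cells. The causes were not tested. The other 240 counts stayed within 1.5 times and the other 361 sums within 1 SD. Called members with the largest fold changes were followed in 39 results of the ILC2 against macrophage, dendritic against macrophage and Lyve1 programme comparisons. Of their alternatives, 537 kept the call and 116 kept the direction only. The fibroblast and T or NK genes named above are not in these totals.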

Other observations

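Barcodes with over 15% mitochondrially encoded UMIs, which entered no class, numbered 331, 370 and 464 in replicates 1, 2 and 3. Mitochondrially encoded genes took 83.8%, 75.4% and 78.5% of their UMIs, and the 84 nuclear-encoded members summed to 1118, 2622 and 3218 CPM. Per 1000000 UMIs other than mitochondrial and ribosomal protein, the members were at 7201, 11342 and 16105 in these barcodes.

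Smooth muscle cells, 2 in replicate 2 and 3 in replicate 3, had the highest sums of any class, 33857 and 23724 CPM. The 26 B or plasma cells of replicate 2 were at 13970 CPM, and cells that met no class at 13233, 16419 and 16882 CPM. Negative macrophages with under 2 UMIs of Ccr2 and under 2 of Cx3cr1 had median depths of 2114.5, 1249 and 2450 UMIs and sums of 7306, 11978 and 13230 CPM.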
